A study of Homo sapiens with 6 samples.

Results

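The classical cadherins and catenins are the transmembrane and cytoplasmic proteins of the adherens junction, and 9 of their genes were followed here by symbol among the 24580 genes of the deposited expression table. They are the cadherin genes CDH1, CDH2, CDH3, CDH6, CDH11 and CDH17 and the catenin genes CTNNA1, CTNNB1 and CTNND1. CDH17 encodes LI-cadherin, an intestinal cadherin outside the classical types, and was kept with the others. Messenger RNA was sequenced from LoVo-HM, a subline of LoVo that the labels call high-metastatic, and from wildtype LoVo, an established line of human colorectal cancer cells. There were 3 LoVo-HM and 3 LoVo libraries, neither line was treated, and the labels give no other allele or agent and do not say how LoVo-HM was obtained or whether it is 1 clone. Nothing says that replicates were separate cultures, so p-values measure only the spread between these libraries, which may be technical.

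A classical cadherin binds the same kind of cadherin on the neighbouring cell through its extracellular domains. Its cytoplasmic tail holds beta-catenin or the closely related plakoglobin, which carry alpha-catenin and through it actin, while p120-catenin binds nearer the membrane and slows removal of the cadherin from the surface. In colonic epithelium E-cadherin is the main classical cadherin, and beta-catenin also acts in the nucleus as the effector of Wnt signalling.

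Levels are in FPKM, a fragment count divided by transcript length and by library size, so those of different genes may be compared. The libraries summed to 424624 to 428265 FPKM in LoVo-HM and 434108 to 439082 FPKM in LoVo. Read depth is unknown, so no counting interval or detection limit is given. Differences are LoVo-HM minus LoVo on the log2(FPKM + 1) scale with the standard error, which understates the change of genes at low levels. Each adjusted p-value came from the limma fit of 14487 tested genes, by the Benjamini-Hochberg method, and 0.05 was the threshold. Positions are GRCh38, from GENCODE 29.

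The labelled cell type was checked against 11 markers of colorectal epithelium. KRT8, KRT18, EPCAM and CDX2 were present in both lines, whereas CDX1, VIL1 and GPA33 were listed at 0 in all 6 libraries and the highest value of CEACAM5, LGALS4 or MUC13 in any library was 0.245 FPKM. KRT20 ranged from 2.39 to 3.30 FPKM in LoVo-HM, and every LoVo library listed it at 0. Of the 5 tested colorectal markers 4 were higher in LoVo-HM, where 21.8% of all tested genes were higher. They were KRT8 by 0.17, KRT18 by 0.65, CDX2 by 0.74 and KRT20 by 1.96 on the log2 scale. EPCAM alone was lower, by 1.29, where 23.1% of all tested genes were lower. Genes of stratified epithelium were present too, and their 6 markers summed to 457 to 471 FPKM in LoVo-HM and 254 to 264 FPKM in LoVo. KRT5, KRT14 and KRT17 were higher in LoVo-HM and TP63, KRT6A and SOX2 were lower, and KRT5 made up most of the LoVo-HM sum, with a mean of 395 FPKM in LoVo-HM, against 39.9 FPKM in LoVo. KRT17 averaged 59.7 FPKM in LoVo-HM, against 1.12 FPKM in LoVo, and KRT14 averaged 2.29 FPKM in LoVo-HM, against 0.276 FPKM in LoVo. TP63 averaged 0.296 FPKM in LoVo-HM, against 36.1 FPKM in LoVo, KRT6A 0.839 FPKM in LoVo-HM, against 150.5 FPKM in LoVo, and SOX2 4.46 FPKM in LoVo-HM, against 32.7 FPKM in LoVo. Some of the listed colorectal markers were thus present in both lines and others were not, so these values do not settle the colorectal label. The identity of the lines is taken from the labels and was not tested, and each difference given here is between libraries so labelled. Of the fibroblast markers COL1A1 alone reached the test, COL1A2 was listed at 0 throughout, and the 5 endothelial and 5 immune markers summed to at most 0.270 and 0.388 FPKM in a LoVo-HM library and 0.0991 and 0.462 FPKM in a LoVo library. The part of these markers in the cadherin results was not tested. In bulk libraries fewer cells with a transcript and less transcript per cell cannot be told apart.

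Of the 9 genes, 6 averaged at least 0.5 FPKM over the libraries and were tested. CDH1, CDH3 and CTNND1 were lower in LoVo-HM, CDH11 and CTNNB1 were higher, and CTNNA1 did not pass. That is 5 of 6 past the threshold where 44.9% of all tested genes passed, 3 lower where 23.1% of all were lower, and 2 higher where 21.8% were higher. Over all genes the balance depended on scaling, with 3161 higher and 3347 lower as deposited, 3573 higher and 3066 lower at equal totals and 3646 higher and 2969 lower after quantile normalization. Values of the lines did not overlap for 5 of the 6, where 55.0% of all tested genes did not overlap. The median log2 difference of the 6 was -0.23, beside 0.0027 over all tested genes. Nothing particular to the 6 is read from these counts. The low genes CDH2, CDH6 and CDH17 were not tested.

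**Figure D1:**
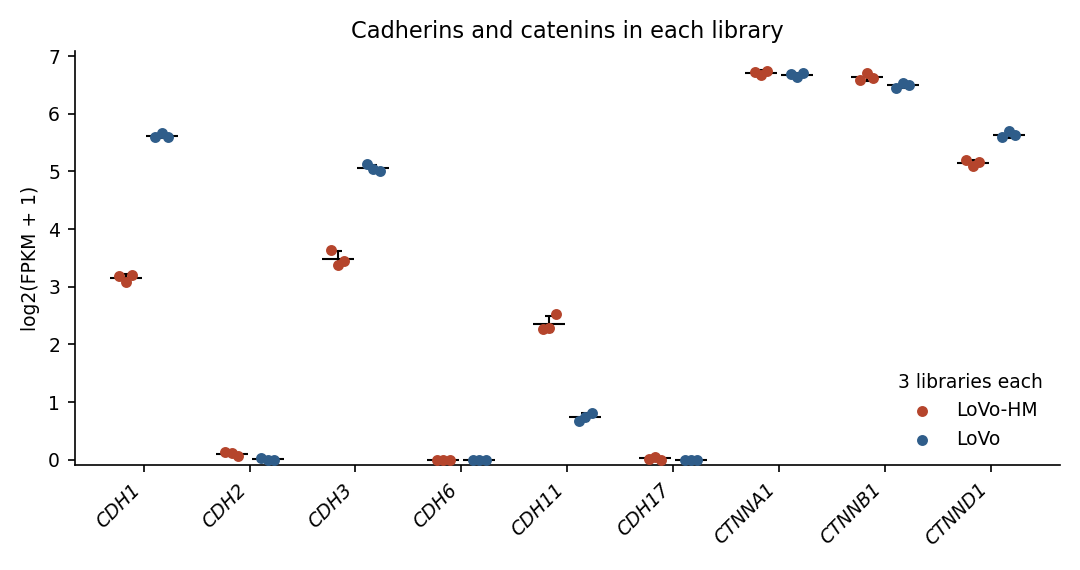
Level of each cadherin and catenin gene as log2(FPKM + 1) on the vertical axis, with 3 LoVo-HM libraries (red, left) and 3 LoVo libraries (blue, right) as points and the mean ± SD as a black bar. CDH1 and CDH3 sit lower in LoVo-HM and CDH11 higher, while the points of CTNNA1 overlap.

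CDH1 encodes E-cadherin, the epithelial classical cadherin (ENSG00000039068, chromosome 16, 68737225 to 68835548, plus strand). It stood at 8.08, 7.50 and 8.15 FPKM in the LoVo-HM libraries, against 47.3, 49.6 and 47.1 FPKM in the LoVo libraries. Every LoVo-HM library lay far below every LoVo library. The mean level in LoVo-HM was 16.5% of that in LoVo, a log2 difference of -2.46 ± 0.055 (limma adjusted p = 5.9e-09).

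CDH3 encodes P-cadherin, a classical cadherin of basal layers and of some carcinomas, and lies directly before CDH1 on the same strand (ENSG00000062038, chromosome 16, 68636189 to 68722616), 14.6 kilobases away. Its levels were 11.4, 9.36 and 9.84 FPKM in LoVo-HM, against 33.9, 31.9 and 31.0 FPKM in LoVo. The lines did not overlap here either. Mean CDH3 in LoVo-HM was 31.6% of the LoVo mean (log2 difference -1.57 ± 0.077, limma adjusted p = 7.26e-07).

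CDH11 encodes OB-cadherin, a type II cadherin best known from mesenchymal cells and osteoblasts (ENSG00000140937, chromosome 16, 64943753 to 65126112, minus strand). It was at 3.83, 3.84 and 4.74 FPKM in LoVo-HM, against 0.599, 0.671 and 0.743 FPKM in LoVo. All 3 LoVo-HM libraries exceeded all 3 LoVo libraries, by 6.16-fold on the means. On the log2 scale the difference was 1.62 ± 0.103 (limma adjusted p = 4.04e-06), and adding 0.1 rather than 1 before the logarithm gave 2.46.

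The other cadherins among the 9 were near or at 0. CDH2, which encodes N-cadherin, the cadherin of neural and mesenchymal cells, was at 0.0903, 0.0890 and 0.0445 FPKM in LoVo-HM, and in LoVo it was at 0.0186 FPKM in 1 library and listed at 0 in the others. The lines did not overlap, but all values lay below the mean of 0.5 FPKM needed for testing, and in a fit without a filter the adjusted p of limma was 0.0914. CDH17 (chromosome 8, 94127171 to 94217303) was at 0.00719 and 0.0361 FPKM in 2 LoVo-HM libraries and listed at 0 in the third and in all LoVo libraries. CDH6, which encodes the type II K-cadherin of kidney (chromosome 5, 31193750 to 31329146), was listed at 0 in all 6 libraries.

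CTNNA1 and CTNNB1 stood above every cadherin followed here in both lines. CTNNA1, the alpha-catenin that links the complex to actin (ENSG00000044115, chromosome 5, 138610967 to 138935034), was at 105, 100.5 and 106 FPKM in LoVo-HM, against 102, 99.04 and 103 FPKM in LoVo. The lines overlapped. The log2 difference was 0.03 ± 0.042, with a 95% interval of -0.06 to 0.13 (limma adjusted p = 0.557).

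CTNNB1, the gene of beta-catenin (ENSG00000168036, chromosome 3, 41194741 to 41260096), was at 94.7, 103 and 96.8 FPKM in LoVo-HM, against 86.2, 92.1 and 89.7 FPKM in LoVo. The lines did not overlap, by a small margin. A log2 difference of 0.14 ± 0.048 only just passed (limma adjusted p = 0.0490, 95% interval 0.03 to 0.25). It did not pass when any 1 of the 6 libraries was left out, with adjusted p from 0.0545 to 0.147, nor without a filter (0.0636) or without a trend in the variance (0.119).

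CTNND1, the gene of p120-catenin (ENSG00000198561, chromosome 11, 57753243 to 57819546), was at 35.7, 33.1 and 34.8 FPKM in LoVo-HM, against 47.1, 51.0 and 48.5 FPKM in LoVo. No LoVo-HM library reached the lowest LoVo library. The mean was 70.7% of that in LoVo (log2 difference -0.49 ± 0.052, limma adjusted p = 9.7e-05). The readthrough TMX2-CTNND1, which shares its sequence, was at most 0.0279 FPKM in any library. ULK4 overlaps CTNNB1 on the opposite strand and was at most 1.90 FPKM, and the strand setting of the counting is not given in the sources used here.

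Ordered by mean level, the genes ran CTNNA1, CTNNB1, CTNND1, CDH3, CDH1 and CDH11 in LoVo-HM, and CTNNA1, CTNNB1, CTNND1, CDH1, CDH3 and CDH11 in LoVo. Neighbours whose libraries overlapped were CTNNA1 and CTNNB1 in LoVo-HM, and CTNND1 and CDH1 in LoVo. E-cadherin and P-cadherin transcripts stood in opposite order in the lines. The ratio of CDH1 to CDH3 was 0.708, 0.801 and 0.828 in LoVo-HM, against 1.39, 1.56 and 1.52 in LoVo. Its means were 0.779 ± 0.0633 and 1.49 ± 0.0846 (SD, n = 3 each), and the two-sided exact permutation p was 0.1, the smallest that 3 libraries against 3 allow.

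CDH1 was lower relative to each of the 3 catenins followed here in every LoVo-HM library than in any LoVo library. For 1 FPKM of CTNNB1 there was 0.0807 ± 0.00706 FPKM of CDH1 in LoVo-HM and 0.537 ± 0.0119 in LoVo. The same ratio to CTNND1 was 0.229 ± 0.00437 in LoVo-HM and 0.983 ± 0.0181 in LoVo, and to CTNNA1 it was 0.0761 ± 0.00129 in LoVo-HM and 0.473 ± 0.0241 in LoVo. Summed over the 6 cadherins the ratio to CTNNB1 was 0.228 ± 0.0237 in LoVo-HM and 0.907 ± 0.0374 in LoVo (all SD, n = 3 each). No LoVo-HM library overlapped a LoVo library in any of these 4 ratios, and each had an exact permutation p of 0.1. Adjusted over the 6 ratios and 4 shares tested in this way, an exact permutation p of 0.1 became 0.111. Within a library such a ratio does not depend on how the library is scaled. No ratio of the cadherins to JUP, the gene of plakoglobin, was taken. JUP was itself lower, with a mean of 19.8 FPKM in LoVo-HM, against 77.5 FPKM in LoVo. These ratios therefore do not speak for catenins in general.

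The cadherins were also summed to see which of them made up the total. The 6 followed here summed to 23.4, 20.8 and 22.8 FPKM in LoVo-HM, against 81.8, 82.1 and 78.9 FPKM in LoVo. CDH1 made up 35.4 ± 0.820% of that sum in LoVo-HM and 59.3 ± 1.34% in LoVo. The share of CDH11 was 18.5 ± 2.22% in LoVo-HM and 0.831 ± 0.106% in LoVo. CDH3 held 45.6 ± 2.83% in LoVo-HM and 39.9 ± 1.40% in LoVo (SD, n = 3 each, exact permutation p = 0.1 for each of these 3 shares). CDH17 held at most 0.173% in any library (exact permutation p = 0.4).

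Other cadherin genes were part of the total. All 23 genes named CDH with a number summed to 45.3, 45.04 and 42.7 FPKM in LoVo-HM, against 108, 106 and 107 FPKM in LoVo. CDH24, a type II cadherin, was at 13.7 ± 1.19 FPKM in LoVo-HM, against 14.6 ± 1.33 FPKM in LoVo (log2 difference -0.09 ± 0.086, 95% interval -0.29 to 0.10, limma adjusted p = 0.411). It held 30.7 ± 1.72% of this wider sum in LoVo-HM, above CDH1 with 17.9 ± 1.23%, and 13.7 ± 1.20% in LoVo, below CDH1 with 44.9 ± 1.52% (SD, n = 3 each). Over this wider sum the share of CDH3 turned the other way, at 23.0 ± 2.20% in LoVo-HM and 30.2 ± 1.28% in LoVo. CDH12, another type II cadherin, was at 6.58, 8.55 and 6.19 FPKM in LoVo-HM, against 5.75, 6.05 and 5.84 FPKM in LoVo, and did not pass (0.23 ± 0.108, limma adjusted p = 0.122).

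Of 13 other type I and type II cadherins, CDH12 and CDH24 were the 2 tested and 11 were too low. The highest value among those 11 was 0.897 FPKM, for CDH10 in a LoVo library. CDH10 was at 0.139, 0.134 and 0.122 FPKM in LoVo-HM, against 0.897, 0.723 and 0.696 FPKM in LoVo. Of 4 atypical cadherins only CDH26, a cadherin of epithelia, was tested. CDH26 was listed at 0 in 2 LoVo-HM libraries and at 0.0198 FPKM in the third, against 3.74, 3.46 and 4.97 FPKM in LoVo (-2.32 ± 0.126, limma adjusted p = 1.45e-06, and -5.27 with a pseudocount of 0.1).

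**Figure D2:**
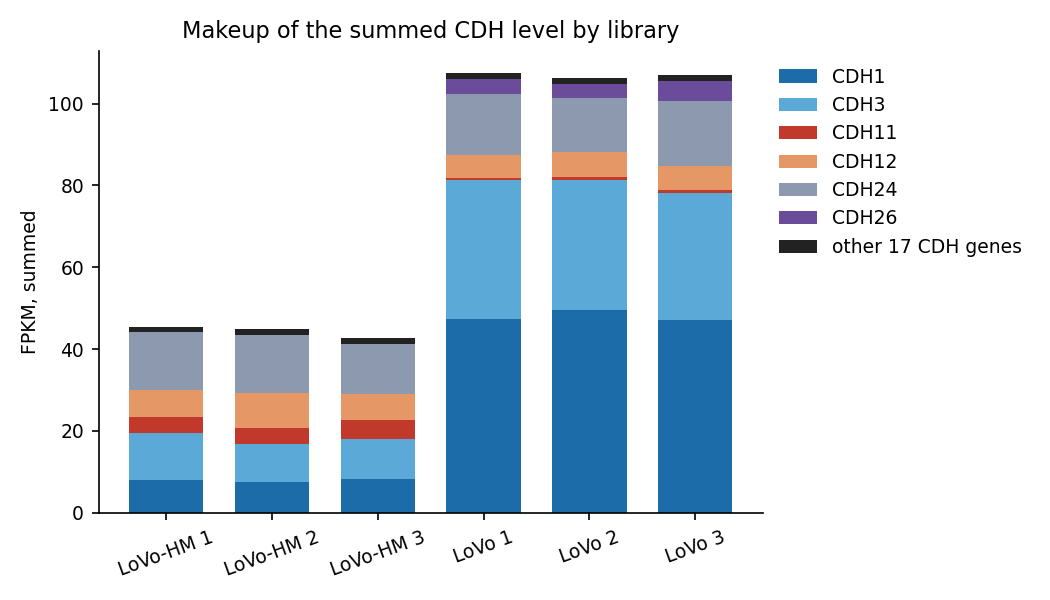
Summed FPKM of the 23 CDH genes on the vertical axis, stacked by gene for each LoVo-HM library (left) and each LoVo library (right), with 6 genes in colour and the other 17 in black. The LoVo-HM bars reach 42.7 to 45.3 FPKM and the LoVo bars 106 to 108 FPKM, and the blue parts, CDH1 and CDH3, account for most of the gap.

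Among the other catenins was JUP. It encodes plakoglobin, the paralog of beta-catenin that serves both adherens junctions and desmosomes (ENSG00000173801, chromosome 17, 41754604 to 41786931). JUP was at 19.2, 20.3 and 19.8 FPKM in LoVo-HM, against 76.9, 76.8 and 78.9 FPKM in LoVo. Its log2 difference was -1.92 ± 0.045 (limma adjusted p = 7.63e-09). The ratio of CTNNB1 to JUP was 4.97 ± 0.113 in LoVo-HM and 1.15 ± 0.0411 in LoVo (SD, n = 3 each, exact permutation p = 0.1). Counting both as partners of the same cadherin tail, JUP made up 16.8 ± 0.316% of their sum in LoVo-HM and 46.5 ± 0.878% in LoVo. Of the 7 other catenins 4 were tested, with 1 higher, 2 lower and a median log2 difference of -0.06. Among all tested genes 21.8% were higher and 23.1% lower, and nothing particular to these 4 is read from the counts. The p120 relative ARVCF rose (0.35 ± 0.095, limma adjusted p = 0.0166), its relative PKP4 fell (-0.24 ± 0.063, limma adjusted p = 0.0139), and CTNNAL1 was at 37.0 ± 1.46 FPKM in LoVo-HM, against 33.9 ± 1.35 FPKM in LoVo without passing (limma adjusted p = 0.0886). Without LoVo-HM replicate 1 neither ARVCF (adjusted p = 0.0537) nor PKP4 (0.0545) passed, and PKP4 did not pass without LoVo replicate 3 (0.0509).

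Proteins that join the cadherin complex to actin and to neighbouring junctions went both ways. Of 19 tested linkers 6 rose, 5 fell and 8 did not pass, where 21.8% of all tested genes rose and 23.1% fell, with a median log2 difference of -0.05 beside 0.0027 over all tested genes. VCL, the gene of vinculin, which binds alpha-catenin under tension, was at 57.9 ± 1.44 FPKM in LoVo-HM, against 38.8 ± 1.47 FPKM in LoVo (0.57 ± 0.048, limma adjusted p = 2.37e-05). LIMA1, which encodes the actin bundling protein EPLIN, rose 1.93-fold. AJUBA, a LIM protein of junctions, was at 18.9, 18.2 and 17.2 FPKM in LoVo-HM, against 61.0, 64.4 and 61.8 FPKM in LoVo (-1.73 ± 0.052, limma adjusted p = 3e-08). NECTIN1, an immunoglobulin-type adhesion protein of the same junction, fell to 9.10 ± 0.983 FPKM in LoVo-HM, against 24.2 ± 1.61 FPKM in LoVo. PLEKHA7, which binds p120-catenin at the apical junction, was at 4.06 ± 0.275 FPKM in LoVo-HM, against 9.25 ± 0.248 FPKM in LoVo.

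**Figure D3:**
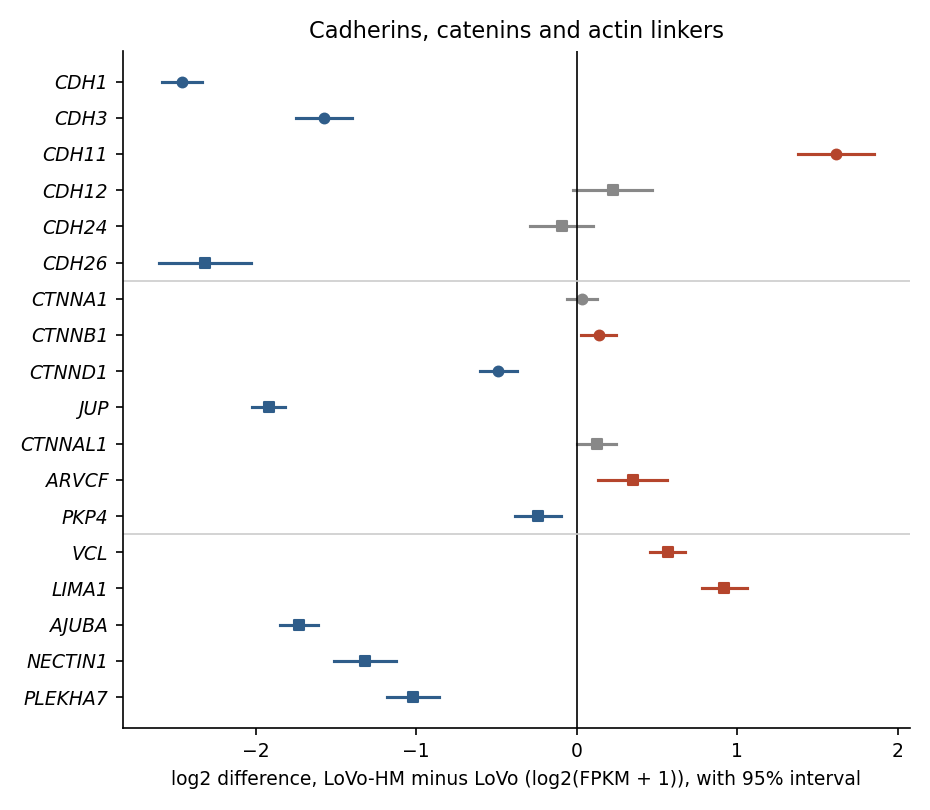
Log2 difference, LoVo-HM minus LoVo on the log2(FPKM + 1) scale, with its 95% interval on the horizontal axis, for cadherins (top), catenins (middle) and linkers (bottom). Circles are the genes followed here and squares others, with red for higher, blue for lower and grey for not past the threshold. CTNNA1, CTNNB1, CTNNAL1 and CDH24 lie close to 0. CDH1, CDH3, CDH26, JUP and the linkers AJUBA, NECTIN1 and PLEKHA7 lie far to the left.

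Genes for the turnover and transport of cadherins went both ways. Of 19 tested 6 rose, 3 fell and 10 did not pass (median log2 difference 0.10), a share of calls near the 44.9% of all tested genes. AP1M2, the epithelial sorting adaptor subunit that directs cargo to the basolateral membrane, was at 14.6, 14.4 and 12.8 FPKM in LoVo-HM, against 69.7, 70.3 and 66.5 FPKM in LoVo (-2.23 ± 0.061, limma adjusted p = 1.87e-08). ADAM10, the sheddase that cleaves the E-cadherin ectodomain, was at 29.5, 28.7 and 31.6 FPKM in LoVo-HM, against 10.5, 11.5 and 11.3 FPKM in LoVo (1.36 ± 0.061, limma adjusted p = 4.22e-07). RAB11A, a GTPase of recycling endosomes, was lower at 19.5 ± 0.558 FPKM in LoVo-HM, against 28.0 ± 0.678 FPKM in LoVo. PTPN14, a phosphatase found at junctions, was higher at 8.04 ± 0.423 FPKM in LoVo-HM, against 3.73 ± 0.350 FPKM in LoVo.

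Known repressors of CDH1 were measured next. Of 9 tested 5 rose, 1 fell and 3 did not pass, beside 21.8% higher and 23.1% lower among all tested genes, with a median log2 difference of 0.14. ZEB1, a zinc finger repressor that binds E-boxes of the CDH1 promoter, was at 7.47, 6.83 and 7.52 FPKM in LoVo-HM, against 0.166, 0.511 and 0.156 FPKM in LoVo (2.71 ± 0.121, limma adjusted p = 4.15e-07, and 4.41 with a pseudocount of 0.1). TCF4, a basic helix-loop-helix repressor, rose to 6.69 ± 0.380 FPKM in LoVo-HM against 3.72 ± 0.352 FPKM in LoVo, and EZH2, a histone methyltransferase, rose by 0.39 ± 0.040 on the log2 scale. TCF3 and CTBP1 rose only by 0.14 and 0.15, near the threshold (limma adjusted p = 0.0324 and 0.0416). They were not among the genes compared across settings. SNAI1 was at 4.60, 3.42 and 4.56 FPKM in LoVo-HM and 3.64, 3.89 and 5.06 FPKM in LoVo (limma adjusted p = 0.997), and SNAI2 fell to 0.411 ± 0.151 FPKM in LoVo-HM, against 1.01 ± 0.205 FPKM in LoVo (-0.51 ± 0.131, and -1.14 with a pseudocount of 0.1). TWIST1, TWIST2 and GSC were listed at 0 in all libraries.

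Transcription factors that maintain epithelial genes were lower almost throughout, with 11 of 12 tested members lower, 1 higher and a median log2 difference of -1.001. Among all tested genes 23.1% were lower and 21.8% higher. GRHL2, which sustains CDH1 transcription in epithelia, was at 0.770, 0.757 and 1.08 FPKM in LoVo-HM, against 8.60, 10.1 and 9.48 FPKM in LoVo (-2.48 ± 0.1004, limma adjusted p = 2.24e-07). GRHL3, KLF5 and FOXA1 fell too, by 2.69, 2.28 and 1.61 on the log2 scale. The member that rose was CDX2, the intestinal homeobox factor and an activator of CDH17, at 15.6, 14.9 and 13.7 FPKM in LoVo-HM, against 8.53, 8.34 and 8.28 FPKM in LoVo. CDH17 itself stayed at or near 0 in both lines, as given above. Whether any of these repressors or activators set the cadherin levels was not tested.

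**Figure D4:**
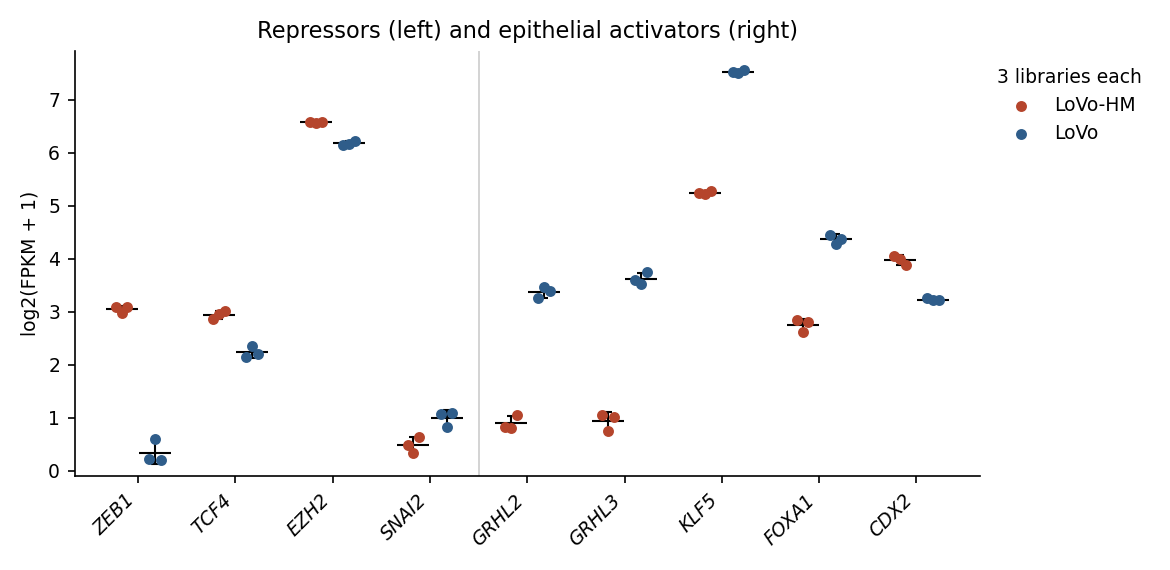
Level as log2(FPKM + 1) on the vertical axis of 4 repressors of CDH1 (left of the line) and 5 epithelial activators (right), with 3 LoVo-HM libraries in red and 3 LoVo libraries in blue as points and the mean ± SD as black bars. ZEB1 is higher and GRHL2, GRHL3, KLF5 and FOXA1 are lower in LoVo-HM, while SNAI2 is low in both lines.

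Beta-catenin outside the junction is destroyed by a complex and acts in the nucleus with TCF and LEF factors. Of 15 genes listed for the destruction complex and other control of beta-catenin, all tested, 1 rose, 3 fell and 11 did not pass. Their median log2 difference was 0.02, and 44.9% of all tested genes passed. AXIN2, a scaffold of the complex and itself a Wnt target, was at 133, 134 and 123 FPKM in LoVo-HM, against 37.4, 34.4 and 35.5 FPKM in LoVo (1.83 ± 0.052, limma adjusted p = 2.16e-08). BTRC, the ubiquitin ligase subunit that recognises beta-catenin, fell by 0.43 on the log2 scale, AMER1 by 0.34 and AXIN1 by 0.26 (limma adjusted p = 0.0288 for AXIN1). AXIN1 did not pass without LoVo replicate 1 or 2, without LoVo-HM replicate 1 or 3 or without a filter on low values, with adjusted p from 0.0575 to 0.0953. Of the 14 nuclear partners 6 rose, 4 fell and 4 did not pass (median log2 difference 0.13), set against the same 44.9%. TLE4, a Groucho co-repressor, rose to 48.2 ± 2.13 FPKM in LoVo-HM, against 6.81 ± 0.524 FPKM in LoVo. LEF1 rose by 0.76 and TLE3 by 0.83 on the log2 scale, and TCF7L2, the main intestinal TCF factor, fell by 0.90.

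Genes with the profile most like CDH1 were sought over the 6 libraries by the root mean square distance of centred log2(FPKM + 1). CKMT1A, a mitochondrial creatine kinase with a near-identical copy that makes its value uncertain, came first at a distance of 0.0559, then BCAN at 0.0580 and MACC1 at 0.0588. For CDH3 they were LFNG at 0.0494, GNG2 at 0.0624 and FOXA1 at 0.0662. With 6 libraries in 2 groups this measure mainly matches the size of the difference between the lines, which was -2.55 for CKMT1A and BCAN, -2.57 for MACC1 and -1.56, -1.63 and -1.61 for LFNG, GNG2 and FOXA1. On unlogged means BCAN was 91.9-fold and MACC1 51.5-fold lower in LoVo-HM, against 6.07-fold for CDH1, with LoVo-HM means of 0.0564 FPKM for BCAN and 0.108 FPKM for MACC1, where the added 1 FPKM sets the log2 value.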

How the data were processed

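RNA was extracted with Trizol and libraries were made with an Illumina TruSeq kit, per the labels' protocols, 3 from LoVo-HM and 3 from LoVo. FPKM values were used as the authors deposited them, with 1 column for each library. Per the submitters' processing notes the genome was GRCh38, while aligner, counter, annotation and strand setting were not given in the sources used here. All 9 identifiers were found in GENCODE 29. Among 441 genes between 0 and 0.3 FPKM, at most 2.72% of ratios of LoVo-HM 1 to LoVo 1 fell in any 1 interval of 0.05 (log2). No step worth 1 read was seen in this 1 pair, where differences between the lines could hide it. Depth is unknown and limits the precision of low values to an unknown degree.

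Genes averaging 0.5 FPKM or more were compared as log2(FPKM + 1) by limma 3.58.1 in R 4.3.3, with a trend in the variance, a two-sided test and Benjamini-Hochberg adjustment. The fit was also run on simulated data in which few genes differed, unlike here. That run does not bear on small differences such as that of CTNNB1. The 6 ratios and 4 shares used exact permutation tests (scipy 1.17.1). The test of the CDH11 share was added after the values were seen. Lists are described by counts and medians, with no set test, and 1 list is not reported here. The members and lists were chosen with earlier results of these data known. Named are the 9 genes, 9 fixed genes (JUP, VCL, ZEB1, SNAI2, GRHL2, AXIN2, EPCAM, VIM and CDX2), up to 4 of each list with the smallest p, and 3 genes most like CDH1 and CDH3. SNAI1, TCF3, CTBP1, CDH10, DSC2, TP63, the neighbours of CDH3 and CDH1 and the other markers were named after their values were seen. EPCAM (-1.29) and VIM (3.35) were fixed as an epithelial and a mesenchymal marker. The 4 other tested colorectal markers were higher, unlike EPCAM. Alternatives changed the pseudocount, the filter, the scaling, the variance model, the replicate block and each library in turn. Promoter and protein sequences were not used here.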

Additional observations from a re-analysis of the deposited data

How the results depend on the processing

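Over 49 named genes and 16 alternative settings, 766 of 783 differences kept their direction and their side of the threshold, and no called difference changed sign. CDH1 ranged from -2.59 to -2.43, CDH3 from -1.66 to -1.52, CTNND1 from -0.51 to -0.46 and CDH11 from 1.53 to 2.46 on the log2 scale, and all 4 passed in every setting. The exceptions were CTNNB1, AXIN1, PKP4 and ARVCF, with the values given beside each, and CTNNAL1, which passed after rescaling to equal totals (adjusted p = 0.0441). The cause was not tested. The share of CDH3 in the summed cadherins changed sign when all 23 CDH genes were summed, with a difference of -7.15 percentage points against 5.78 over the 6, because CDH24 and CDH12 enter the sum. The other ratios and shares kept their direction when any 1 library was left out, and the ratios also when 1 was added to both levels. The number of genes past the threshold was 6508, and 5483 to 5983 when 1 library was left out.

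Same-numbered libraries did not deviate together (correlations of -0.00701, 0.0215 and 0.0264), so the numbers are not taken to pair the libraries. With the replicate block 6459 genes passed, and the same 5 of the genes followed here (adjusted p = 0.0299 for CTNNB1). Depth is unknown, so levels such as those of CDH2 and CDH17 cannot be told from 0 or from background.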

Other observations

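The desmosomal cadherins bear on cell contact too, and their median log2 difference was -0.52. Of the 7 desmosomal cadherins, which hold desmosomes together beside the adherens junction, 5 were tested, of which 4 fell, where 23.1% of all tested genes fell, and DSC2 did not pass (6.51 FPKM in LoVo-HM, against 8.13 FPKM in LoVo on average). DSG3 fell to 1.22 ± 0.125 FPKM in LoVo-HM, against 14.5 ± 0.692 FPKM in LoVo, and DSC3 to 22.5 ± 0.977 FPKM in LoVo-HM, against 96.3 ± 2.06 FPKM in LoVo. DSG2, the desmoglein of simple epithelia, fell by 0.52 on the log2 scale.

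CDH3 and CDH1 are neighbours, so the 3 nearest tested genes on each side were looked up, a choice made after the values were seen. ZFP90, 60.1 kilobases before CDH3, was at 12.2 ± 0.874 FPKM in LoVo-HM, against 12.8 ± 0.731 FPKM in LoVo (limma adjusted p = 0.503). TANGO6, which starts 8.06 kilobases after CDH1, was at 7.47 ± 0.223 FPKM in LoVo-HM, against 7.82 ± 0.554 FPKM in LoVo (limma adjusted p = 0.549). PRMT7, SLC7A6OS and CHTF8 did not pass either (limma adjusted p of 0.206, 0.911 and 0.0544). HAS3, a hyaluronan synthase gene 270 kilobases after CDH1, was at 0.565, 0.763 and 0.891 FPKM in LoVo-HM, against 4.20, 5.36 and 4.63 FPKM in LoVo (-1.72 ± 0.114, limma adjusted p = 5.06e-06). Of all 14487 tested genes 7979 did not pass, so nothing particular to this region is read from the neighbours that did not. Why CDH3, CDH1 and HAS3 were lower was not tested.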
